A study of Caenorhabditis elegans with 2 samples.

Results

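The genes described here are the protein-coding genes of Caenorhabditis elegans whose symbols begin with ceh- or hlh-, leaving out ceh-22, hlh-1 and hlh-30. They were taken by symbol from the WBcel235 annotation, by a rule that uses no measured value, although the families were picked with earlier results of these data known. This gave 85 genes of 19973 protein-coding genes on the nuclear chromosomes, 62 of them ceh- and 23 hlh- genes. RNA 3' ends had been sequenced from 2 libraries of strain JM149 worms, 1 from input nuclei labelled mixed tissues (total RNA) and 1 from sorted nuclei labelled intestine (nuclear RNA). Each library came from pooled worms of mixed-stage liquid culture that had passed a strainer to enrich adults, and its RNA was amplified before sequencing. The labels do not say which cells carried the mark used for sorting. Each group was 1 library, so no test between groups was possible, and the difference in the RNA's label cannot be told apart from the sort.

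The ceh- symbols name homeobox genes, whose proteins bind DNA through a helix-turn-helix fold, the homeodomain. The hlh- symbols name basic helix-loop-helix (bHLH) genes, whose proteins bind DNA as pairs, often with the broadly expressed E protein HLH-2 as the partner. In this worm most studied members of both families specify neurons, muscles or epidermal cells in restricted lineages. Known exceptions for the intestine include ceh-60, a PBX-type homeobox gene that acts with the Meis-type gene unc-62 on yolk protein genes, and hlh-11, an AP-4 orthologue known to restrain lipid breakdown.

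For each gene the reads of its own strand were added up from its start to 300 nt beyond its end and given as reads per 1000000 gene-assigned reads (RPM). A transcript gives a read at its 3' end whatever its length, so RPM values of different genes were compared directly. The input library held 8989703 gene-assigned reads and the sorted library 4530531, so that 1 read was 0.111 RPM in input and 0.221 RPM in sorted nuclei. Ratios are sorted over input RPM, with exact 95% binomial intervals in parentheses. These intervals cover counting error only, since reads amplified by PCR without molecular identifiers do not each stand for a molecule. Fewer cells of a type and less RNA per cell cannot be told apart in such pooled nuclei.

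Markers of the labelled tissue were checked first. Of 9 measured intestinal markers 6 passed 2-fold upward, beside 13.5% of all measured genes. Among the 6 were the gut GATA factor gene elt-2 with a ratio of 3.19 and elt-7 with 4.49. The yolk protein genes vit-2 and vit-6 stood at 0.737 and 0.757. Summed levels of the lists went from 13539 to 19390 RPM for intestine, from 355 to 385 for neurons, from 3228 to 1782 for body wall muscle, from 1537 to 647 for germ line, from 3925 to 1558 for hypodermis and from 216 to 98.9 for pharynx. These sums rested on few genes. In the intestine list act-5 gave 5445 and 8538 RPM and cpr-1 gave 2144 and 4582. In the pharynx list phat-2 gave 182 and 76.2 RPM. In the neuron list egl-21 went from 195 to 124 RPM and snb-1 from 84.4 to 206. Without tnt-2 the muscle list went from 417 to 514 RPM, of which unc-54 gave 79.3 and 211. The remaining muscle genes were lev-11 at a ratio of 1.22, myo-3 at 0.986, unc-15 at 0.875 and mlc-1 at 0.575. Without col-19 the hypodermis list went from 756 to 879 RPM, of which rol-6 gave 317 and 725. The remaining hypodermis genes dpy-7, col-10 and bli-1 stood at 0.342, 0.366 and 0.331. Without mex-3 the germ line list went from 658 to 341 RPM. The genes tnt-2, col-19 and mex-3 were left out after their values were seen, each from a list whose sum fell. No gene was left out of the intestine, neuron or pharynx list. Among markers of other tissues snb-1 of neurons (2.44), unc-54 of muscle (2.66), gld-1 of the germ line (3.19) and rol-6 of the hypodermis (2.28) were called at least 2-fold higher. That was 1 each of 7, 6, 7 and 5 measured markers, and none of 4 for pharynx. In the same order 1, 1, 2, 3 and 1 were called lower, beside 4.14% of all measured genes. Every matched marker of the other tissues had reads in sorted nuclei, and the part of those tissues in the values below was not tested.

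The ceh- and hlh- genes were rare in both libraries. Together they gave 2745 input and 1417 sorted reads, or 305 and 313 RPM, and a ratio of summed levels of 1.02 (interval 0.960 to 1.09). The median member had 6 input and 4 sorted reads, against 14 and 9 for the median protein-coding gene. At least 1 read was found for 70 members in input and 65 in sorted nuclei, which is 82.4% and 76.5% of members, beside 79.7% and 76.1% of all protein-coding genes. Thinned to the sorted depth, the input library would be expected to show 64.1 members (SD 1.94). The number of members read was therefore about the same in both libraries once depth was equal. Among hlh- genes 13 were read in sorted nuclei against 15.5 (SD 1.21) expected from input, and among ceh- genes 52 against 48.6 (SD 1.52).

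A few members carried most of the input reads and a smaller part of the sorted reads. The 6 members with at least 200 input reads held 57.4% of the members' input reads and 43.2% of their sorted reads. They were ceh-100, ceh-41, ceh-38, hlh-16, ceh-21 and ceh-39, and 4 of them are CUT-class homeobox genes. Levels above 10 RPM were reached by 8 members in input and 11 in sorted nuclei. The remaining members ran down to the limit of detection, 27 with 1 to 9 reads over both libraries and 10 with none.

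**Figure D1:**
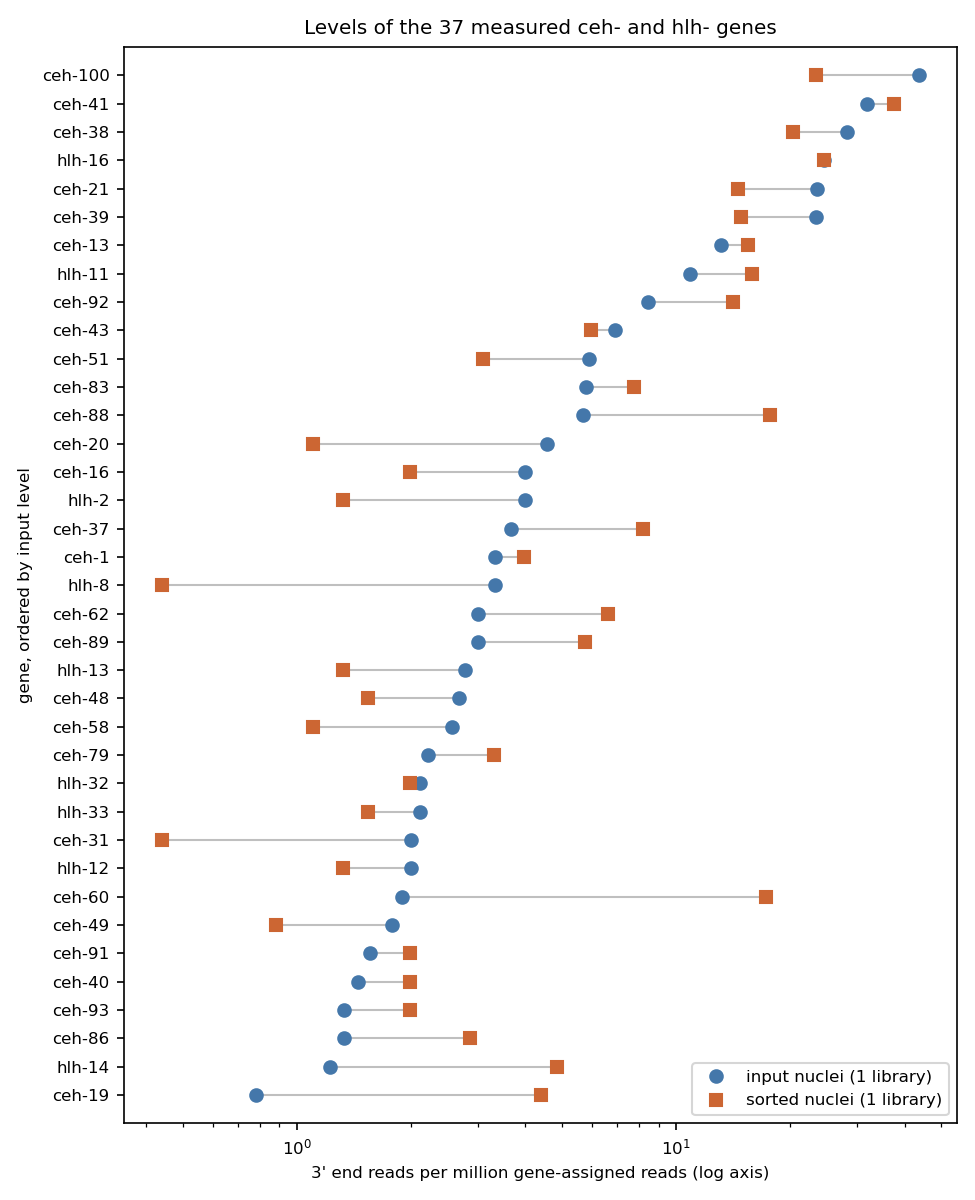
The level of each of the 37 ceh- and hlh- genes with at least 20 reads over both libraries, in RPM on a log axis, with a circle for the input library and a square for the sorted library. Among the most abundant genes ceh-100 goes from 43.7 to 23.4 RPM and hlh-16 stays at 24.6 and 24.5; ceh-60 goes from 1.89 RPM in input to 17.2 RPM in sorted nuclei, the widest gap upward, and hlh-8 from 3.34 to 0.441 RPM, the widest gap downward.

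The comparison of sorted with input nuclei covered the 37 members (43.5%) with at least 20 reads over both libraries, beside 53.5% of all protein-coding genes. Calls were made where the interval lay wholly beyond 2-fold. Of these members 3 were called higher, ceh-60, ceh-19 and ceh-88, and 13.5% of the 10692 measured genes were. None was called lower, against 4.14% of all measured genes. At 4-fold 1 member was higher, with 4.69% of genes, and none lower, with 0.309%. Among the 8324 genes with as many reads as the measured members had, 20 to 499, the shares were 13.1% higher and 2.79% lower at 2-fold, and 4.6% and 0.216% at 4-fold. The members' share of calls was not above that of genes in general.

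Ratios of any size were evenly divided, 18 above 1 and 19 below, where 51% and 49% of all measured genes stood (53.2% above among genes in the members' read range). The interval left out 1 for 9 members above it and 9 below it. Of all measured genes 32.3% and 27.5% did so, and of those in the members' read range 31% and 21.2%. The median log2 ratio was -0.0017 over the measured members, beside 0.043 over all measured genes and 0.11 over those in the members' read range. These differences were not tested.

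These read numbers limited which differences could be called. A gene with 20 reads needed 15 of them from sorted nuclei, giving a ratio of 5.95, to be called higher, and none from sorted nuclei to be called lower. With 100 reads a ratio of 3.10 or of 0.271 was enough. A member not called at 2-fold can therefore still differ by that much.

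**Figure D2:**
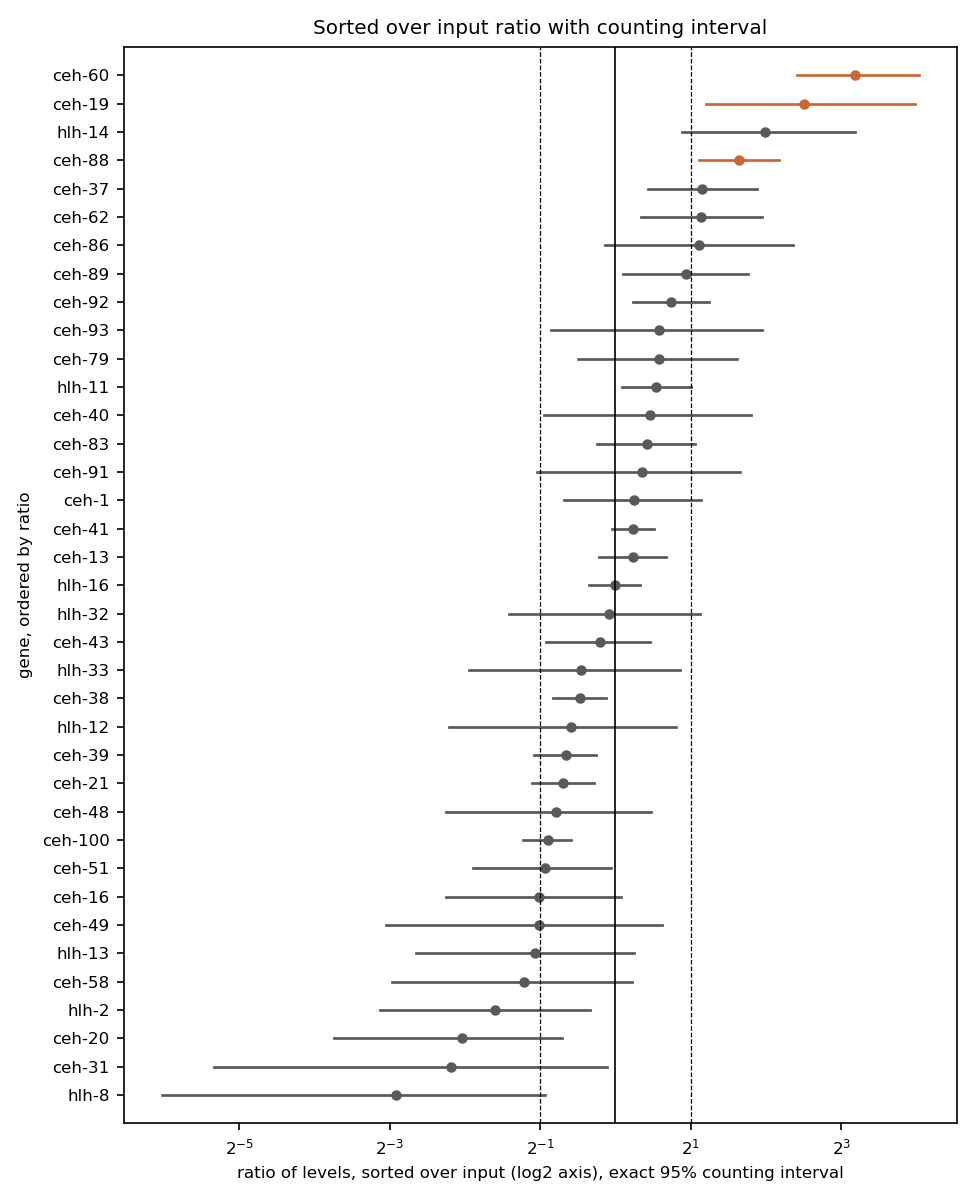
Ratio of levels, sorted over input, for the 37 measured members on a log2 axis, with exact 95% counting intervals and dashed lines at 2-fold in either direction. The 3 coloured genes, ceh-60, ceh-19 and ceh-88, have intervals wholly above 2-fold, and no interval lies wholly below the lower line.

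The PBX-type (PBC) homeobox genes encode partners that bind DNA together with Hox and Meis proteins. The intestinal regulator ceh-60 (X:6522596-6530146 in WBcel235, minus strand) had 17 input and 78 sorted reads, which is 1.89 and 17.2 RPM. Its ratio of 9.10 (5.34 to 16.4) was the highest of the measured members and the only one past 4-fold. With only reads within 24 nt of its annotated 3' end the ratio was 6.21 (3.53 to 11.5), past 2-fold but no longer past 4-fold. At this end the gene ets-4 lies on the other strand, and the reads counted here were those of the ceh-60 strand.

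The other PBC genes did not share this value. ceh-40, which acts with ceh-20 in the embryo, had 13 input and 9 sorted reads, giving a ratio of 1.37 (0.518 to 3.47). ceh-20, the orthologue of Drosophila extradenticle and a Hox cofactor, had 41 input and 5 sorted reads, giving a ratio of 0.242 (0.0746 to 0.612). Most of its input reads lay inside the gene: 34 of the 41 input reads and 1 of the 5 sorted reads lay at a site in the coding sequence, 1811 nt upstream of the annotated end. Outside it ceh-20 had 7 input and 4 sorted reads, giving a ratio of 1.13 (0.243 to 4.46). It was the only measured member with its main site in coding sequence, which 2.07% of measured genes had. The known partner of CEH-60, unc-62, is not among the members and had 114 input and 41 sorted reads, giving a ratio of 0.714 (0.487 to 1.03).

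CUT homeobox genes carry a second DNA-binding domain beside the homeodomain, and several act together across the nervous system. The gene ceh-44, also listed as CUT, was not matched by symbol among the protein-coding genes. All 6 matched members of the class were measured, and none was called. They had 1001 input and 406 sorted reads in sum and a ratio of summed levels of 0.805 (0.715 to 0.904). Of the 6, 5 stood below the input level. ceh-38 had 253 input and 92 sorted reads, giving a ratio of 0.722 (0.562 to 0.919). ceh-48, known as a gene of all neurons, had 24 and 7 reads, giving a ratio of 0.579 (0.211 to 1.38), and ceh-49 had 16 and 4, giving a ratio of 0.496 (0.121 to 1.54).

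The other 3 CUT genes are neighbours on one strand of the X chromosome, in the order ceh-39, ceh-21 and ceh-41 in the direction of transcription, with gaps of 1137 and 103 nt. ceh-39, an X-linked signal of sex determination, had 210 input and 67 sorted reads, giving a ratio of 0.633 (0.473 to 0.837). Next to it ceh-21 had 212 and 66 reads, giving a ratio of 0.618 (0.461 to 0.818). ceh-41, the last of the row (X:1846608-1848675), had 286 and 170 reads, and its ratio of 1.18 (0.970 to 1.43) had an interval that did not overlap those of its neighbours. Counts of the upstream pair were thus nearly equal in each library, while ceh-41 was more abundant than both, by more in sorted nuclei.

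Among NK-type and related homeobox genes, which include many regulators of neurons and of the head, 7 of 19 were measured. ceh-19, known from the pharyngeal MC motor neurons, had 7 input and 20 sorted reads, giving a ratio of 5.67 (2.30 to 15.9), and was called higher. Its reads lay mostly at its annotated end, 7 in input and 18 in sorted nuclei, where mcm-3AP lies on the other strand. ceh-62 had 27 and 30 reads, giving a ratio of 2.20 (1.27 to 3.85), and was not called. ceh-1, with 30 and 18 reads, stood at 1.19 (0.625 to 2.21), and the Distal-less orthologue ceh-43, with 62 and 27, at 0.864 (0.529 to 1.38). The lowest ratios of the class, none of them called, were those of ceh-16, ceh-51 and ceh-31. The Engrailed orthologue ceh-16, known from seam cells of the epidermis, had 36 and 9 reads, giving a ratio of 0.496 (0.210 to 1.05). ceh-51, known from early mesoderm, had 53 and 14, giving a ratio of 0.524 (0.269 to 0.958), and the BarH-type ceh-31 had 18 and 2, giving a ratio of 0.220 (0.0248 to 0.921). ceh-30, its neighbour on the other strand and close relative, had no read in either library.

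The Hox gene ceh-13, orthologue of Drosophila labial, had 118 input and 70 sorted reads, giving a ratio of 1.18 (0.863 to 1.60). In the Paired-like class the Otx-type gene ceh-37 was the one measured member of 8, with 33 and 37 reads, giving a ratio of 2.22 (1.35 to 3.67), not called at 2-fold. Its neighbour ceh-36, another Otx-type gene known from chemosensory neurons, had 2 input reads and none in sorted nuclei. The POU genes ceh-18 and ceh-6, the sine oculis type genes ceh-32, ceh-33 and ceh-34 and the LIM gene ceh-14 all stayed under 20 reads. Of these ceh-18, known from the gonad sheath, had 9 and 6 reads, ceh-14 had 10 and 1, and ceh-32 had 9 and 2.

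A further 19 homeobox genes stood in none of these classes, and 10 of them were measured. ceh-100 (II:12582178-12603680) had the most input reads of any member, 393 against 106 in sorted nuclei, which is 43.7 and 23.4 RPM, giving a ratio of 0.535 (0.428 to 0.665). ceh-88 on chromosome IV had 51 input and 80 sorted reads, or 5.67 and 17.7 RPM, giving a ratio of 3.11 (2.16 to 4.51), and was called higher. All these reads lay at the first of its 2 annotated 3' ends, 40 nt past the stop codon. Its last 909 nt overlap C49C3.6 on the same strand, and reads there were given to neither gene. When they were counted for both, the ratio of ceh-88 was 1.51 and the call ended. ceh-92, with 76 and 64 reads, stood at 1.67 (1.18 to 2.36), and ceh-89, with 27 and 26, at 1.91 (1.07 to 3.40). The others of this group, ceh-58, ceh-79, ceh-83, ceh-86, ceh-91 and ceh-93, had ratios from 0.431 for ceh-58 to 2.15 for ceh-86, with intervals that held 1.

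Of the 9 measured bHLH genes 7 had ratios below 1, the median log2 ratio was -0.39, and none was called. hlh-2, the E protein that many of the others pair with, had 36 input and 6 sorted reads, giving a ratio of 0.331 (0.114 to 0.792). The Twist orthologue hlh-8, known from the mesodermal M lineage and its muscles, had 30 and 2 reads, giving a ratio of 0.132 (0.0153 to 0.521), the lowest of the measured members. Its upper bound missed 2-fold narrowly, and with only reads within 24 nt of an annotated end, 24 in input and 0 in sorted nuclei, hlh-8 was called lower with an upper bound of 0.344. The Ptf1a orthologue hlh-13 had 25 and 6 reads, giving a ratio of 0.476 (0.160 to 1.19), and hlh-12, needed for the migration of the gonad's distal tip cells, had 18 and 6, giving a ratio of 0.661 (0.215 to 1.74). hlh-33, with 19 and 7 reads, stood at 0.731 (0.260 to 1.82).

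The Olig-like genes and hlh-11 stood near or above the input level. hlh-16, with 221 input and 111 sorted reads, or 24.6 and 24.5 RPM, was the most abundant bHLH gene of the list and had a ratio of 0.997 (0.786 to 1.26). hlh-32, from a group of Olig-like genes known in glia, had 19 and 9 reads, giving a ratio of 0.940 (0.375 to 2.18), while the related hlh-17 had no read and hlh-31 had 1 input read. hlh-11 (III:9619711-9626529) had 98 and 72 reads, or 10.9 and 15.9 RPM, giving a ratio of 1.46 (1.06 to 2.00). The Achaete-Scute-like neuronal gene hlh-14 had 11 and 22 reads, giving a ratio of 3.97 (1.84 to 9.06), and was not called, with 11 and 16 of its reads at its main site and 4 sorted reads in coding sequence. Its relative hlh-3 had 12 input and 2 sorted reads, too few to be measured. Below the minimum of 20 reads hlh-10 stood out after its values were seen, with 2 input and 14 sorted reads at 1 site, 3 nt past its annotated end, giving a ratio of 13.9 (3.19 to 126).

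Of the 48 members under 20 reads, 38 had at least 1 read and 10 had none. Of the 5 REF-1 type genes, Hairy-like bHLH genes that respond to Notch signalling in the embryo, only hlh-27 was read, with 4 input and 7 sorted reads. hlh-25, hlh-26, hlh-28 and hlh-29 had none. The last pair, on opposite strands 2415 nt apart on X, are close copies. Since the handling of reads that map to several places is not given in the sources used here, their count is uncertain. Where no read was found, the depth still allows a level of 0.334 RPM in input and of 0.662 RPM in sorted nuclei, the worth of 3 reads. Also at 0 in both libraries were ceh-7, ceh-23, ceh-28, ceh-30 and ceh-87. The 14 members listed as known from neurons gave 8.23 RPM in input and 8.39 in sorted nuclei in sum, giving a ratio of 1.02 (0.670 to 1.53), and 3 of them had no read. Its members went both ways, and hlh-14 alone gave 22 of the 38 sorted reads. Without hlh-14 the ratio of the sum was 0.504 (0.272 to 0.883), and with ceh-19, which the list leaves out, it was 1.42 (0.996 to 2.02), both computed after the values were seen. The sum thus depended on which genes were listed, and of the CUT genes the list holds only ceh-48. Of the pair listed for a known intestinal role, ceh-60 was called higher and hlh-11 was not.

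Members were found more often on the X chromosome than genes in general, 24 of 85 (28.2%) against 13.7% of all protein-coding genes. They gave 34.4% of the members' input and 35.6% of their sorted reads. The 12 measured members on X had a median log2 ratio of 0.25, and all measured genes on X had 0.15, a difference that was not tested. Of the called members ceh-60 lies on X, and ceh-19 and ceh-88 lie on IV.

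**Figure D3:**
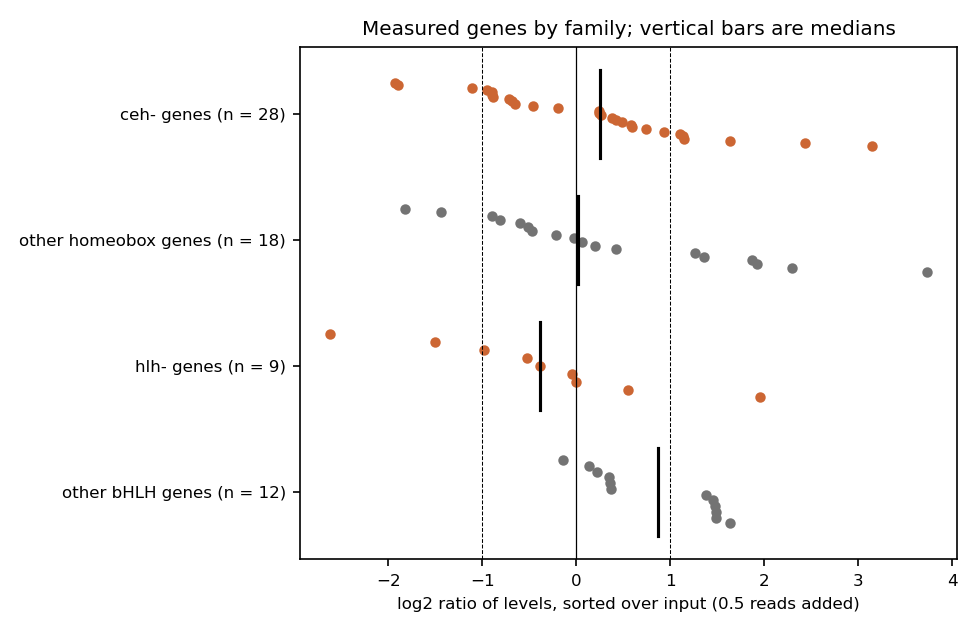
Log2 ratio of levels, sorted over input with 0.5 reads added, for the measured ceh- and hlh- genes and for lists of other homeobox and other bHLH genes; each point is a gene and each vertical bar the median of its row. The medians are 0.25 for ceh- genes, 0.02 for other homeobox genes, -0.39 for hlh- genes and 0.87 for other bHLH genes.

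Other homeobox and bHLH genes were listed for comparison, most with other name prefixes and with ceh-22, hlh-1 and hlh-30 among them. Of 18 measured homeobox genes among 39, 4 were called higher and none lower, beside 13.5% and 4.14% of all measured genes. These were the posterior Hox neighbours php-3 at 4.92 (3.70 to 6.60), with 69 input and 171 sorted reads, and nob-1 at 3.67 (2.47 to 5.54), the gene hmbx-1 at 3.82 (2.36 to 6.33), and mec-3, a LIM gene of touch neurons, at 15.2 (4.60 to 79.1) with 3 and 23 reads. The other abundant ones included lim-7, known from the gonad sheath, with 137 and 25 reads and a ratio of 0.362 (0.226 to 0.557), and pros-1, with 131 and 35 and a ratio of 0.530 (0.354 to 0.775). Of 12 measured bHLH genes among 18, 11 stood above the input level, where 51% of all measured genes did, and 2 were called higher, beside 13.5%. These were mdl-1, a Mad-type partner of the Max proteins, at 2.60 (2.34 to 2.89) with 608 and 796 reads, and the hypoxia factor gene hif-1 at 2.82 (2.31 to 3.44) with 174 and 247 reads. The genes hlh-30, mxl-2, mxl-1 and mml-1 had ratios of 1.29, 1.29, 1.27 and 2.82 and were not called. The median log2 ratio of this list was 0.87, against -0.39 for the hlh- genes; the difference between the lists was not tested.

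The second comparison asked whether members used other 3' ends in sorted nuclei. Most reads lay where the annotation ends transcripts. Within 24 nt of an annotated end lay 68.01% of the members' input and 72.2% of their sorted reads, against 77.8% and 74.6% for all genes. Positions had first been moved by each window's commonest offset to annotated ends, so part of this closeness was built in. The main site lay near an annotated end in 29 of the 37 measured members (78.4%), beside 74.7% of measured genes. Its median distance past the stop codon was 190 nt, with quartiles of 130 and 352 nt, and in all measured genes it was 128 nt with quartiles of 70 and 244 nt. The members' median was the longer, a difference that was not tested. In ceh-21 the main site held 211 of 212 input and all 66 sorted reads at 851 nt upstream of the annotated end, so that nearly all transcripts read were shorter than the annotated one.

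Shares of sites could be compared in the 15 members with at least 20 reads in each library, 9 of which had several sites. A shift was called where a site gained or lost 20 percentage points or more and its exact Clopper-Pearson intervals were apart. Of the 15 members, 2 were shifted, hlh-11 and ceh-38, beside 9.01% of the 7072 genes compared. They moved in opposite directions.

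In hlh-11 a site 206 nt past the stop codon, at position 9626020 of chromosome III in the files, took 15.3% (8.83 to 24.0) of the input reads but 48.6% (36.7 to 60.7) of the sorted ones. The site at the annotated end, 607 nt past the stop codon at 9626421, held 67.3% (57.1 to 76.5) and 43.1% (31.4 to 55.3). Shorter transcripts of this gene therefore took the larger part in sorted nuclei, with 35 reads at the proximal and 31 at the distal site, against 15 and 66 in input. With only reads near annotated ends the ratio of hlh-11 was 0.879 (0.558 to 1.36) in place of 1.46.

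In ceh-38 the proximal site, 379 nt past the stop codon at position 6955049 of chromosome II, held 87.4% (82.6 to 91.2) of the reads in input and 68.5% (58.0 to 77.8) in sorted nuclei. The distal site, 676 nt past the stop codon at 6955346, held 7.91% (4.90 to 11.9) and 30.4% (21.3 to 40.9). The proximal site held most reads in both libraries, and the longer transcripts had the higher share in sorted nuclei. The distal site alone went from 20 input to 28 sorted reads, while the proximal one went from 221 to 63, so that with only reads near annotated ends the ratio of ceh-38 was 2.90 (1.58 to 5.43) in place of 0.722.

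Smaller differences were seen in other members and were not called. In ceh-41 a site 464 nt upstream of the annotated end held 1.75% (0.570 to 4.03) of the reads in input and 11.8% (7.34 to 17.6) in sorted nuclei. In ceh-13 the middle of 3 sites, 60 nt upstream of the annotated end, held 22.9% (15.7 to 31.5) and 5.71% (1.58 to 13.99). In ceh-100 the main site, 4 nt upstream of the annotated end, held 94.7% (91.9 to 96.7) and 80.2% (71.3 to 87.3). The intervals of both libraries were apart in each of these 3 genes, while the shares differed by less than 20 points. ceh-60 had too few input reads to be compared; all 17 lay at the annotated end, which held 51 of the 78 sorted reads, and 19 sorted reads lay at a site 40 nt upstream of it that had none in input. In ceh-21, ceh-39, ceh-88, ceh-92 and hlh-16 a single site held from 96.1% to 100% of the reads in each library.

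**Figure D4:**
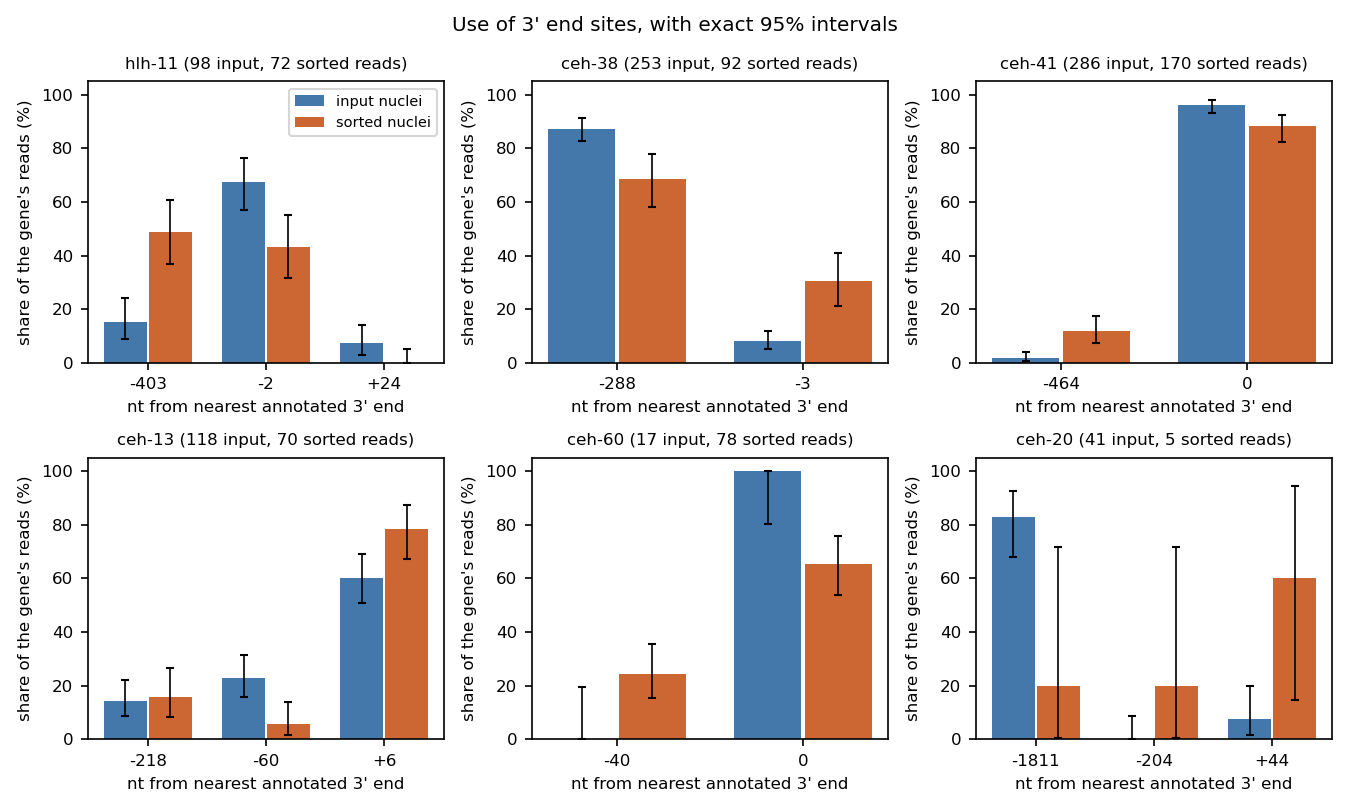
Share of each gene's reads at its 3' end sites, by distance in nt from the nearest annotated 3' end (negative values lie upstream), with bars for input and sorted nuclei and exact 95% intervals. In hlh-11 the upstream site holds 15.3% of input and 48.6% of sorted reads, in ceh-38 the downstream site holds 7.91% and 30.4%, and in ceh-20 the input reads lie mostly at the site 1811 nt upstream, inside the coding sequence.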

How the data were processed

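The authors deposited, for each of 2 libraries, whole-number counts of reads per position and strand, not scaled, as the values show. Per the submitters' processing notes TopHat was used, version unstated. Which build and read filters were used, and what was done with multiply mapped reads, is not given in the sources used here, and base positions printed for 3' end sites are those of the deposited files.

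Gene models came from Ensembl release 115 (WBcel235). The offsets to these models show that the files use another build, so each 0.5 Mb window's commonest offset to annotated protein-coding 3' ends, over positions with at least 10 reads, was added for giving reads to genes. Offsets ran from -7 to 120 nt in 200 of 203 windows and reached 4612 nt in the others; in the windows of measured members they ran from -7 to 119 nt. A median of 42.1% of positions lay within 3 nt of the offset. A span took precedence over an extension of 300 nt, and positions in several spans were left out. The input library held 9243831 reads and the sorted library 4709432, of which 97.3% and 96.2% were given to genes.

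Log2 ratios used 0.5 added reads. Sites were positions within 24 nt of a peak with at least 5% of a gene's reads in either library. The calculations of ratios, offsets and sites were tried on simulated data. These held counting error only and a constant offset per chromosome. They therefore do not test amplified reads or offsets that change within a window. Other settings tried were scaling by edgeR's TMM (version 4.0.16), by the median of ratios in DESeq2 (version 1.42.0) and by total reads, as well as read minimums, extension, window size and how positions were counted. Members with at least 20 reads could be named, and from the comparison lists those called and the most abundant; members with fewer reads were named after their values were seen, to account for each class. The families, classes and lists were chosen with earlier results of these data known. All 37 measured members were examined for overlap: in none did the main site lie in another gene of the same strand, and in 7 it lay in a gene of the other strand. Of the 11 intestinal markers 10 were matched by symbol. No nucleotide or protein sequence was used here.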

Additional observations from a re-analysis of the deposited data

How the results depend on the processing

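The call of 3 members at least 2-fold higher held with TMM, median-of-ratios or all-read scaling and with a 0.25 Mb window. Counting each position once left 9 members measured, of which 0 were higher at 2-fold and 0 at 4-fold; ceh-60, ceh-19 and ceh-88 had too few positions to be measured there, so this setting says nothing of their calls. With only positions near annotated ends 0 members were higher at 4-fold and 1, hlh-8, was lower at 2-fold. Without the extension 1, ceh-20, was lower at 2-fold, at a ratio of 0.103. With the extension, 34 of the 41 input reads of ceh-20 lay at 1 site in coding sequence. Outside that site its ratio was 1.13 (0.243 to 4.46). A minimum of 10 reads added hlh-10 to the higher members, a minimum of 50 left ceh-60 and ceh-88, and counting shared positions for each gene removed ceh-88. The median log2 ratio of members ran from -0.038 to 0.24 over the alternatives, so its sign is not settled. Among 412 single-member ratios under alternatives, 404 kept their call and stayed within the counting interval where not called, and 0 called ones changed direction. Of members not called, 5 ratios moved out of their interval, each to the other side of 1. With each position counted once ceh-100 went from 0.535 to 1.19, ceh-92 from 1.67 to 0.918 and ceh-13 from 1.18 to 0.803. The others were ceh-38 and hlh-11 with only positions near annotated ends. Without the extension ceh-13 joined hlh-11 and ceh-38 as shifted, giving 3 of 10 members compared, and with each position counted once no member could be compared for sites. Leaving out positions in coding sequence, chosen after the data were seen, changed no call. No paired analysis was possible because each group is 1 library. Depth limits all of these values: 48 of the 85 members had fewer than 20 reads.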
